A study of Mus musculus with 6 samples.

Results

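Insulin-like growth factor 1 (IGF1), its receptors and the IGF binding proteins were followed in bone marrow mesenchymal stromal cells (BMSCs) that had been cultured with or without low-dose nickel (Ni). The set held 9 genes of the 54532 in the deposited tables, taken by gene symbol: the ligand Igf1, the receptors Igf1r and Igf2r, and the binding proteins Igfbp2, Igfbp3, Igfbp4, Igfbp5, Igfbp6 and Igfbp7. The cells were primary wild type mouse BMSCs from bone, and every culture, controls included, received osteogenic induction medium with dexamethasone, ascorbic acid and β-glycerophosphate for 7 days. The Ni group also received 0.1 μM NiCl2 and the control group vehicle, with 3 biological replicates in each. The sources used here do not give the age of the mice, nor whether the replicates came from separate animals, so the p-values measure only the spread between these libraries. RNA-seq libraries held from 16101033 to 18642504 counts each. The comparison addresses whether the upstream, growth factor side of AKT signaling differed in transcript level between Ni and control cultures.

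IGF1 is a secreted peptide that activates IGF1R, a receptor tyrosine kinase that signals through IRS adaptors to PI3K and AKT. IGF2R carries no kinase and removes IGF2 from the cell surface by taking it to lysosomes. The IGF binding proteins hold IGFs in the extracellular space, some restraining and some presenting the ligand, and proteases such as PAPP-A release it again; in bone, osteoblasts make IGF1, IGFBP4 and IGFBP5 and store part of them in the matrix.

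The 9 genes lie on 7 mouse chromosomes (GRCm38). The ligand gene Igf1 (ENSMUSG00000020053) is at chr10:87858265-87937042 on the plus strand. Igf1r (ENSMUSG00000005533) is at chr7:67952827-68233668 on the plus strand and Igf2r (ENSMUSG00000023830) at chr17:12682406-12769664 on the minus strand. Among the binding proteins, Igfbp2 (ENSMUSG00000039323, chr1:72824503-72852474, plus strand) and Igfbp5 (ENSMUSG00000026185, chr1:72857932-72874884, minus strand) are neighbours whose 3′ ends face each other across 5457 bases. Igfbp3 (ENSMUSG00000020427) is at chr11:7206086-7213923 on the minus strand, and Igfbp4 (ENSMUSG00000017493) is far from it on the same chromosome, at chr11:99041244-99054392 on the plus strand. Igfbp6 (ENSMUSG00000023046) is at chr15:102144362-102149511 on the plus strand and Igfbp7 (ENSMUSG00000036256) at chr5:77349240-77408041 on the minus strand. Exons of Igfbp7 share 85 bases, or 7.03% of its exon length, with Polr2b on the opposite strand. The sources used here give no strand setting for the counting, so some reads of that stretch could belong to either gene. Polr2b had from 1136 to 1537 counts in a library, against 7870 to 13182 for Igfbp7, and the other 8 genes shared no exon with another gene.

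The upstream sequences of Igfbp5 and Igfbp7 are shown because these were the 2 genes of the set whose Ni and control libraries did not overlap, in opposite directions. Each sequence is the 250 bases before the transcription start, from RefSeq (GRCm38.p6), read 5′ to 3′ on the gene's own strand, with CpG dinucleotides in capitals. The Igfbp5 window is chr1:72874866-72875115 and the Igfbp7 window chr5:77408046-77408295, both on the minus strand.
Igfbp5: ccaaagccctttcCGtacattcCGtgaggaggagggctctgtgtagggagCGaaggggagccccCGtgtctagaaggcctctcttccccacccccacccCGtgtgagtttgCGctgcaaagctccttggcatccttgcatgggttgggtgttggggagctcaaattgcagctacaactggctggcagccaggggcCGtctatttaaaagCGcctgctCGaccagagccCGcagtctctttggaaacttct
Igfbp7: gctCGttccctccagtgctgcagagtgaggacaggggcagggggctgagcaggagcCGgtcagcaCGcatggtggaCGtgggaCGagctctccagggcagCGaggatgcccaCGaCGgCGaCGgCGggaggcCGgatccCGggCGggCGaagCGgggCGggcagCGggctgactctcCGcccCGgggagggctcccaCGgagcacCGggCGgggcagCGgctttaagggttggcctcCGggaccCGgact
The Igfbp5 window had 10 CpG dinucleotides and 58.8% G and C, and the Igfbp7 window had 26 and 74.0%, against medians of 6 and 52.4% over 32851 mouse promoter windows of the same length. The letters GGGCGG, the core of a GC box, occurred 4 times in the Igfbp7 window on either strand and in 0 places in that of Igfbp5, and 32.7% of all windows held them. The TATA box letters TATAAA were in neither window and in 12.4% of all windows. Igfbp5 held TATTTAA once, a spelling looked for after its sequence had been read, which 4.18% of all windows hold on either strand. Among the other genes of the set, Igfbp4 and Igfbp6 each had 1 TATAAA, and CpG counts ran from 5 for Igf1 to 42 for Igf1r. These matches describe letters and do not show that a factor binds there.

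The control libraries were not alike. For 8 of the 9 genes, all but Igfbp3, control replicate 3 was nearer to the mean of the Ni libraries than to that of the other controls, as it was for 67.6% of the 14624 genes that passed the filter on low counts. Markers of cell types that such a culture can hold were summed in CPM (counts scaled to library size, with edgeR's TMM factor for library composition). For 10 stromal markers the sum was from 3997 to 4541 CPM in control and from 4217 to 4485 CPM in Ni libraries. Within that sum, Cxcl12 was lower in every Ni library (means of 2071 CPM in control and 1491 CPM in Ni), and Col3a1, Lum and Dcn were higher by their means with an unadjusted p under 0.05, though none of the 10 passed after adjustment (edgeR). The sum of 10 osteoblast markers was 10399, 10400 and 20537 CPM in control replicates 1, 2 and 3, and 30477, 22898 and 30042 CPM in Ni replicates 1, 2 and 3. All Ni libraries were above all controls for the osteoblast sum, and control replicate 3 was the highest control (log2 difference of the means 1.08, exact permutation p = 0.1, the smallest that 3 against 3 can give). Col1a1, Spp1 and Ibsp were the largest terms of the osteoblast sum. The groups overlapped for Spp1 (means of 5993 CPM in control and 9290 CPM in Ni) and were apart for the other 9 markers. All 10 osteoblast markers had a positive log2 fold change with an unadjusted p under 0.05, and none passed after adjustment, with a smallest adjusted p in edgeR's quasi-likelihood test of 0.208. The 12 macrophage markers summed to between 25265 and 30338 CPM in control and between 25539 and 26273 CPM in Ni libraries. This sum was above that of the stromal markers in every library, although the labels call the cells mesenchymal stem cells. Macrophage transcripts were thus abundant in both groups, and which cells made the RNA of the 9 genes was not tested. Lyz2 was the largest term of the macrophage sum. Of the 12 macrophage markers, 4 (Tyrobp, Fcer1g, Cx3cr1 and Itgam) had an unadjusted p under 0.05 (edgeR) with lower values in Ni and 0 with higher ones. Their median log2 fold change over all 12 was -0.18, and none passed after adjustment. Adipocyte markers (8 genes) lay between 837.3 and 1167 CPM in control and between 817.7 and 931.8 CPM in Ni. Lpl was the largest term of that sum (means of 660.8 CPM in control and 469.6 CPM in Ni). It was the only adipocyte marker with an unadjusted p under 0.05 (edgeR). Of the 6 adipocyte markers tested, 4 had a positive log2 fold change (median 0.14). Endothelial markers (8 genes) lay between 57.8 and 79.6 CPM in control and between 51.1 and 54.4 CPM in Ni. Pecam1 made up most of the endothelial sum (means of 42.5 CPM in control and 27.1 CPM in Ni), while Emcn and Egfl7, at 2 to 3 CPM, were higher in every Ni library than in any control. No marker was at 0 in every library. In such bulk libraries, fewer cells of a type and less RNA per cell cannot be told apart.

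Levels of different genes were compared as FPKM, the deposited reads scaled by gene length and by 1 factor per library, which was close to its total. Igfbp4 and Igfbp7 stood far above the rest, with means over the 6 libraries of 517.3 and 504.1 FPKM. Igfbp5 followed at 46.7 FPKM, then Igf1 at 28.5 and Igfbp3 at 21.9 FPKM. The remaining genes were at 5.84 (Igf2r), 4.78 (Igfbp2), 2.50 (Igf1r) and 1.08 FPKM (Igfbp6), around or below the median of 4.99 FPKM over all genes tested. Of the 14624 genes tested, 56 had a higher mean than Igfbp4 and 61 a higher mean than Igfbp7, whereas 9624 were above Igf1r. The libraries of neighbours in this order overlapped for Igfbp4 and Igfbp7, where Igfbp4 was higher in 4 of 6 libraries. They also overlapped for Igfbp5 and Igf1, for Igf1 and Igfbp3, and for Igf2r and Igfbp2, where the first of each pair was higher in 5 of 6. The ranges were separate between Igfbp7 and Igfbp5, Igfbp3 and Igf2r, Igfbp2 and Igf1r, and Igf1r and Igfbp6. The signaling receptor was thus among the lowest transcripts of the set and its ligand in the middle.

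The ligand Igf1 was slightly higher on average in Ni, within the spread of the libraries. It had 257.0, 215.0 and 319.7 CPM in control replicates 1, 2 and 3 (263.9 ± 52.7, SD, n = 3). Ni replicates 1, 2 and 3 had 305.4, 239.0 and 370.2 CPM (304.9 ± 65.6, SD, n = 3). The groups overlapped, Ni replicate 2 being below 2 of the controls and control replicate 3 above 2 of the Ni libraries. The log2 fold change, Ni over control, was 0.21 (SE 0.18, 95% interval -0.21 to 0.62), with an adjusted p of 0.658 in edgeR's quasi-likelihood test, where p-values were adjusted by Benjamini-Hochberg over all 14624 genes.

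**Figure D1:**
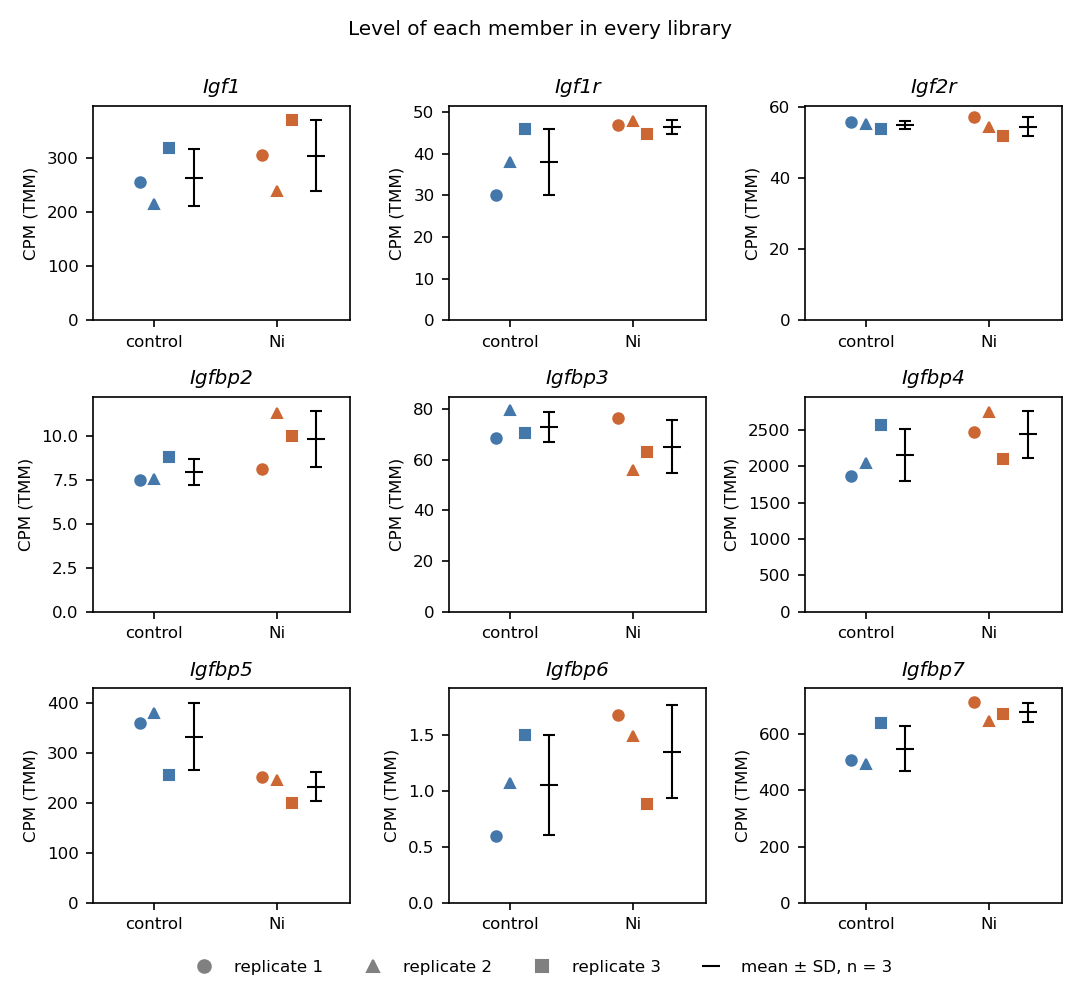
CPM (y axes, from 0) of the 9 genes in control and Ni libraries, 1 panel per gene, with a shape for each replicate and the mean ± SD (n = 3) beside them. Only Igfbp5 (255.7 to 380.4 CPM in control, 199.5 to 252.2 in Ni) and Igfbp7 (495.7 to 640.6 CPM in control, 648.1 to 715.6 in Ni) have groups that do not overlap.

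Of the receptors, Igf1r was higher in Ni by its mean and Igf2r was at nearly the same level. Igf1r, the kinase that transmits the IGF1 signal, had 30.0, 37.9 and 45.8 CPM in control and 47.0, 47.8 and 44.6 CPM in Ni libraries, in replicate order. Controls 1 and 2 were below all Ni libraries, but control replicate 3 was above Ni replicate 3. The log2 fold change was 0.29 (SE 0.14, 95% interval -0.02 to 0.61, adjusted p = 0.4, edgeR). Control replicates spread more (SD 7.92 CPM) than Ni replicates (SD 1.65 CPM, n = 3 each). Without control replicate 3, the log2 fold change was 0.46 and the adjusted p 0.0241 (edgeR), at a setting where 15.2% of all genes tested passed. Leaving out another library gave an adjusted p between 0.443 and 0.839, and without control replicate 1 the log2 fold change was 0.15.

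Igf2r, the clearance receptor for IGF2, had 55.8, 55.1 and 53.8 CPM in control and 57.2, 54.5 and 51.8 CPM in Ni libraries. It was the steadiest of the set, with interleaved groups, a log2 fold change of -0.01 (SE 0.09, 95% interval -0.21 to 0.19) and an adjusted p of 0.972 (edgeR). The FPKM of Igf1r divided by that of Igf2r was 0.298, 0.381 and 0.473 in control and 0.455, 0.487 and 0.478 in Ni libraries. Only control replicate 3 lay among the Ni values of this ratio, whose log2 difference was 0.33 (exact permutation test, two-sided, p = 0.2). The difference was 0.16 without control replicate 1 and 0.49 without control replicate 3.

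Igfbp4 and Igfbp7 made up nearly all of the binding protein transcripts by FPKM, and the groups were apart for Igfbp7 and overlapped for Igfbp4. Igfbp4, which holds IGF1 until PAPP-A cleaves it, had 1870.2, 2050.6 and 2563.6 CPM in control and 2470.4, 2749.4 and 2098.2 CPM in Ni libraries. The highest control was above 2 of the Ni libraries, and Ni replicate 3 was among the controls. The log2 fold change was 0.17 (SE 0.16, 95% interval -0.18 to 0.53, adjusted p = 0.664, edgeR).

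Igfbp7, a secreted matrix protein of the same family that binds IGFs only weakly, had 509.3, 495.7 and 640.6 CPM in control (548.5 ± 80.1, SD, n = 3). The Ni libraries had 715.6, 648.1 and 672.7 CPM (678.8 ± 34.2, SD, n = 3). All Ni libraries were above all controls, though Ni replicate 2 exceeded control replicate 3 by little. The log2 fold change was 0.31 (SE 0.13, 95% interval 0.03 to 0.59), with an unadjusted p of 0.0341 and an adjusted p of 0.35 in edgeR's test. The exact permutation p was 0.1, the smallest possible. Without control replicate 3, the log2 fold change was 0.44 and the adjusted p 0.00463 (edgeR), at a setting where 15.2% of all genes tested passed. With control replicate 1 or 2 left out instead, the adjusted p was 0.772 and 0.844.

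Igfbp5 was the binding protein whose Ni libraries were all below the controls. IGFBP5 binds IGFs and also attaches to bone matrix and hydroxyapatite. It had 360.2, 380.4 and 255.7 CPM in control (332.1 ± 66.9, SD, n = 3) and 252.2, 245.3 and 199.5 CPM in Ni libraries (232.3 ± 28.6, SD, n = 3). All Ni libraries were below all controls, but control replicate 3 was close to Ni replicates 1 and 2. The log2 fold change was -0.52 (SE 0.16, 95% interval -0.87 to -0.16), that is 0.700 times the control level, with an unadjusted p of 0.00906 and an adjusted p of 0.295 in edgeR's test. It had the lowest unadjusted p of the set, and its exact permutation p was 0.1. Without control replicate 3, the log2 fold change was -0.67 and the adjusted p 0.00118 (edgeR), at a setting where 15.2% of all genes tested passed. With another library left out in its place, the adjusted p was between 0.259 and 0.83. Testing all genes with any count gave Igfbp5 an adjusted p of 0.00153, and taking the replicate numbers as a block gave 0.0378 (edgeR, all 6 libraries), settings at which 3.97% and 2.15% of all genes tested passed. With any count admitted, Igf1, Igf2r and Igfbp5 all had an SE of 0.12, against 0.18, 0.09 and 0.16 in the main test. The p-value from that setting thus does not measure the spread of Igfbp5 itself. The osteoblast marker sum, higher in Ni, and the endothelial marker sum, lower in Ni and mostly Pecam1, were also separated between the groups. Single macrophage and stromal markers were separated too, while the endothelial markers Emcn and Egfl7 were higher in every Ni library. The part of any of these in the Igfbp5 and Igfbp7 values was not tested.

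**Figure D2:**
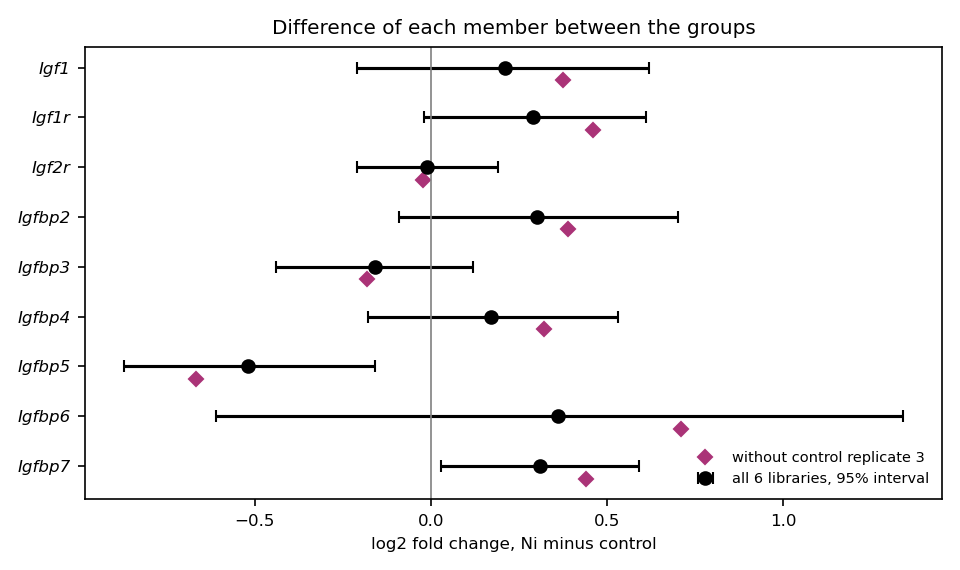
Log2 fold change (x axis) of each gene, Ni over control, from edgeR's quasi-likelihood test, as black points with the 95% interval over all 6 libraries and as diamonds without control replicate 3. The intervals of Igfbp5 (-0.87 to -0.16) and Igfbp7 (0.03 to 0.59) exclude 0 before adjustment for multiple testing, and with all 6 libraries no gene has an adjusted p under 0.05.

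**Figure D3:**
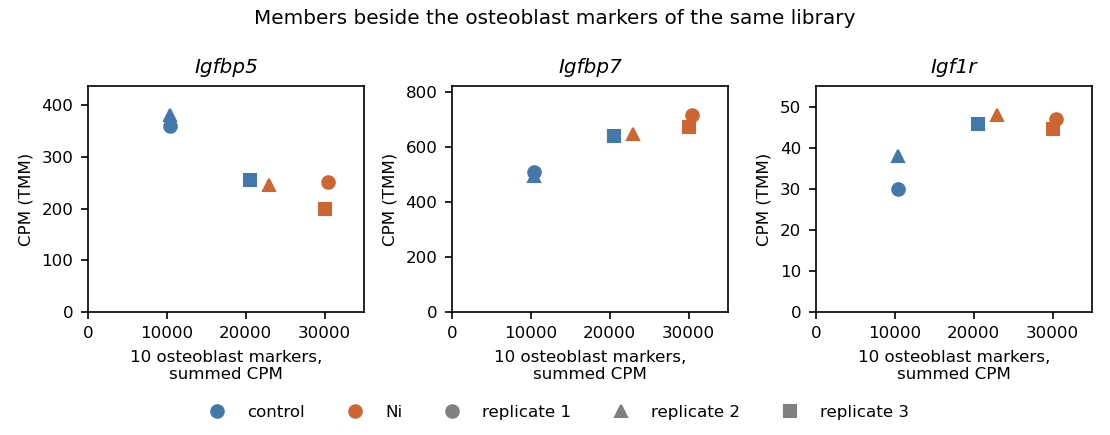
CPM of Igfbp5, Igfbp7 and Igf1r (y axes) against the summed CPM of 10 osteoblast markers (x axes) in the 6 libraries, with color for the group and shape for the replicate. Col1a1, Spp1 and Ibsp are the largest terms of the summed CPM. Control replicate 3, at 20537 CPM of osteoblast markers, sits beside the Ni libraries in all 3 panels and apart from control replicates 1 and 2.

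The opposite differences of Igfbp5 and Igfbp7 appeared together in their ratio, which was chosen after the values had been seen. The FPKM of Igfbp5 over that of Igfbp7 was 0.142, 0.154 and 0.0803 in control and 0.0709, 0.0762 and 0.0597 in Ni libraries. The log2 difference was -0.82, and control replicate 3 was nearer to Ni than to the other controls. That the groups were separated in this ratio follows from the choice of its genes, so a test of it carries no weight and none is reported.

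The less abundant binding proteins did not separate. Igfbp3, the main IGF carrier in blood, had 68.7, 79.5 and 70.4 CPM in control and 76.5, 55.9 and 62.9 CPM in Ni libraries, with Ni replicate 1 above 2 of the controls. Its log2 fold change was -0.16 (SE 0.13, 95% interval -0.44 to 0.12, adjusted p = 0.603, edgeR).

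Igfbp2, which has been studied for its effects on osteoblasts, had 7.49, 7.56 and 8.82 CPM in control and 8.14, 11.3 and 10.0 CPM in Ni libraries. Ni replicate 1 was among the controls, and the log2 fold change was 0.30 (SE 0.18, 95% interval -0.09 to 0.70, adjusted p = 0.473, edgeR). Igfbp6, which prefers IGF2 over IGF1, rested on 11, 17 and 25 reads in control and 31, 26 and 16 reads in Ni libraries. At this depth its log2 fold change of 0.36 had an SE of 0.44 and a 95% interval from -0.61 to 1.34 (adjusted p = 0.756, edgeR). Neither the direction nor the size of a difference can be read from an interval this wide.

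As shares of the summed FPKM of Igfbp2 to Igfbp7, Igfbp4 took 47.5% ± 1.87 in control and 46.7% ± 3.74 in Ni (SD, n = 3 each), and Igfbp7 took 44.1% ± 1.56 and 47.7% ± 3.66. The share of Igfbp5 was 6.44%, 6.54% and 3.60% in control and 3.43%, 3.33% and 3.04% in Ni libraries. Control replicate 3 was thus close to the Ni libraries in this share, and the other controls were well above it. Igfbp3 took 2.30% ± 0.364 in control and 1.77% ± 0.278 in Ni, and Igfbp2 and Igfbp6 each stayed under 1%. The summed FPKM of the 6 binding proteins was 925.2, 961.2 and 1170.1 in control and 1220.1, 1211.7 and 1086.5 in Ni libraries (log2 difference 0.21, exact permutation p = 0.2). Divided by the FPKM of Igf1, the sum was 35.9, 44.6 and 36.6 in control (39.0 ± 4.84, SD, n = 3) and 39.7, 50.8 and 29.2 in Ni (39.9 ± 10.8, SD, n = 3). The Ni libraries enclosed the controls in this ratio of binding protein to ligand transcripts, and the exact permutation p was 1.

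**Figure D4:**
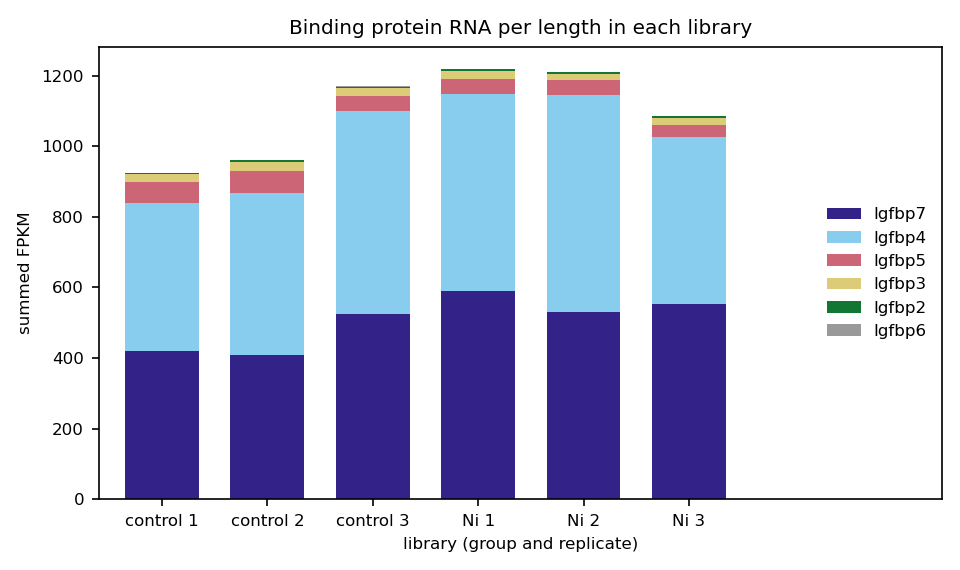
Summed FPKM of Igfbp2 to Igfbp7 (y axis) in each library (x axis), stacked by gene. Igfbp4 and Igfbp7 fill most of every bar, and the share of Igfbp5 is 6.44% and 6.54% in control replicates 1 and 2 and between 3.04% and 3.60% in the other 4 libraries.

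Of the 9 genes, 0 passed an adjusted p under 0.05 in edgeR's test, where the share over all tested genes was also 0%. DESeq2 called 0 of the 9 as well at that threshold, and 261 of all genes. At an unadjusted p under 0.05, 2 of the 9 were called, against 13.4% of all genes. One of these was higher in Ni (Igfbp7, background 7.59%) and the other lower (Igfbp5, background 5.83%). Likewise 2 of the 9 had groups that did not overlap, 1 of them with Ni higher, against 14.7% of all genes without overlap and 7.97% with Ni higher. Counts this small are near the background and do not set the genes apart from the rest. The log2 fold change was positive for 6 of the 9 genes, with a median of 0.21, against 48.1% and a median of -0.01 over all genes tested. Without control replicate 3, 3 of the 9 passed the adjusted threshold, against 15.2% of all genes tested, and 5 did not overlap, against 43.1%.

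The other extracellular genes of the IGF system were read from a list of 14, of which 12 had enough counts to be tested. Igfbp1 and Igfbpl1 had 0 counts in every library. At an unadjusted p under 0.05, 3 were higher and 1 lower in Ni, against 7.59% and 5.83% of all genes, and none passed after adjustment. Of the 12, 9 had a positive log2 fold change (median 0.20), against 48.1% of all genes. Kazald1, a secreted protein with an IGF binding domain, had 9.45, 14.0 and 12.3 CPM in control and 22.6, 19.1 and 21.2 CPM in Ni libraries, all above the controls. Its log2 fold change was 0.81 (SE 0.16, adjusted p = 0.208, edgeR). The secreted proteases Htra3 and Htra1, whose family cleaves IGF binding proteins, had log2 fold changes of 0.59 (SE 0.15, adjusted p = 0.262) and 0.61 (SE 0.26, adjusted p = 0.367). Htra3 was higher in every Ni library than in any control, whereas for Htra1 the groups overlapped.

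Pappa2, a protease of IGFBP3 and IGFBP5, had 103.9, 96.7 and 80.5 CPM in control and 76.5, 85.1 and 68.4 CPM in Ni libraries. Ni replicate 2 was above control replicate 3, and the log2 fold change was -0.29 (SE 0.12, adjusted p = 0.356, edgeR). Pappa, the IGFBP4 protease, was at 0.44 (SE 0.21, adjusted p = 0.402) and its inhibitor Stc2 at 1.01 (SE 0.46, adjusted p = 0.38), each with control replicate 3 inside the range of the Ni libraries. Igf2, the second ligand, was low, with a mean of 0.715 FPKM and a log2 fold change of -0.41 (SE 0.24, adjusted p = 0.479). The highest levels on the list were those of Lrp1 (104.2 FPKM), Htra1 (22.2 FPKM) and Htra3 (21.8 FPKM), and Lrp1, an endocytic receptor that also takes up IGFBP3, had a log2 fold change of 0.28 (SE 0.15, adjusted p = 0.433).

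Of 19 intracellular genes and related receptors of the pathway, 18 were tested and Insrr had 0 counts in every library. At an unadjusted p under 0.05, 4 were higher and 0 lower in Ni, against the same 7.59% and 5.83% of all genes, and none passed after adjustment. Of the 18, 13 had a positive log2 fold change (median 0.10). The adaptor Irs1, which couples IGF1R to PI3K, had 32.2, 27.2 and 44.5 CPM in control and 48.4, 43.7 and 48.8 CPM in Ni libraries, with a log2 fold change of 0.44 (SE 0.16, adjusted p = 0.334, edgeR). Control replicate 3 was above Ni replicate 2, so the groups overlapped. The adaptors Grb10 and Grb14, which bind and restrain insulin and IGF1 receptors, were at 0.56 (SE 0.17, adjusted p = 0.296) and 0.60 (SE 0.18, adjusted p = 0.294). The ubiquitin ligase Nedd4, a partner of GRB10, was at 0.49 (SE 0.16, adjusted p = 0.306). Every Ni library was above every control for 4 genes of this list, Grb14, Nedd4, Shc1 and Foxo3, against 7.97% of all genes. The highest levels on this list were those of Akt1 (81.5 FPKM), Nedd4 (50.3 FPKM) and the adaptor Shc1 (29.1 FPKM). Akt1, a kinase at the centre of the pathway, had a log2 fold change of -0.04 (SE 0.13, adjusted p = 0.915), and Shc1 one of 0.10 (SE 0.09, adjusted p = 0.656).

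**Figure D5:**
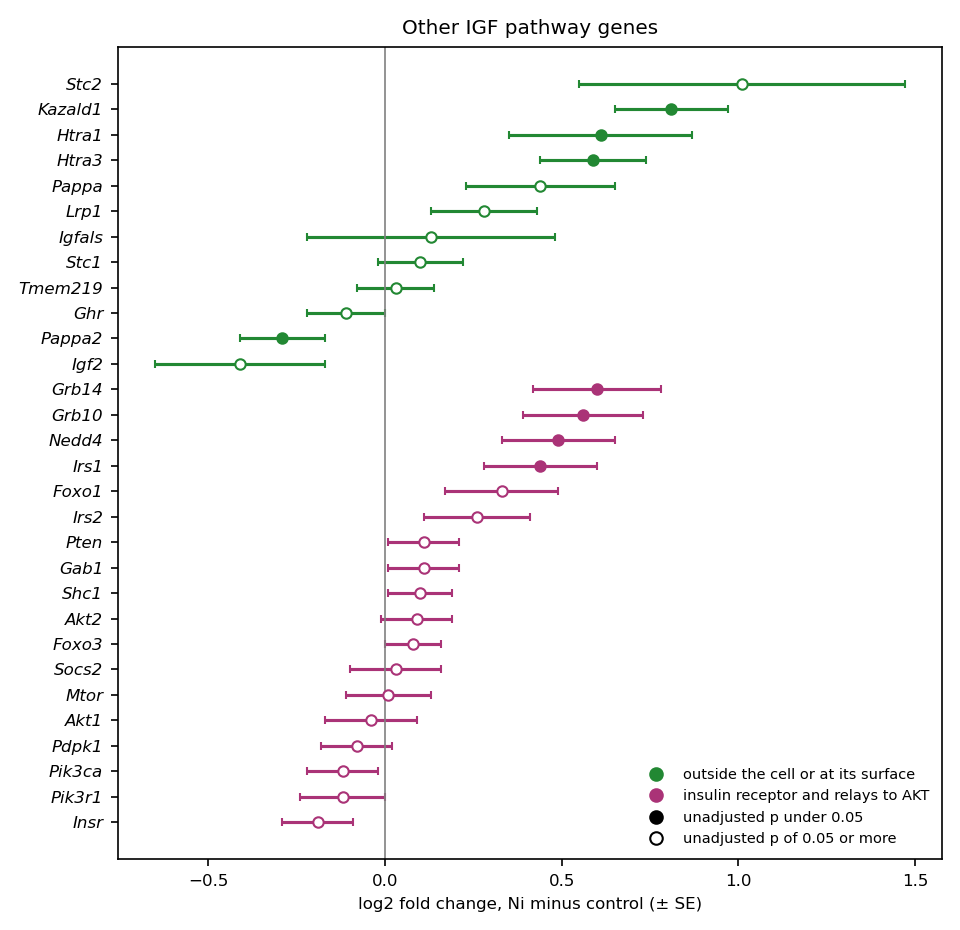
Log2 fold change, Ni over control, of the other IGF pathway genes tested (12 extracellular and 18 intracellular), with bars of ± 1 SE from edgeR, filled points for an unadjusted p under 0.05 and open points for the rest. Kazald1 (0.81), Htra3 (0.59), Grb14 (0.60) and Nedd4 (0.49) are the filled genes with every Ni library above every control.

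For each gene, the gene whose log2 CPM followed it most closely over the 6 libraries was taken from 9472 genes outside the set with a mean of at least 10 CPM. With 6 libraries in 2 groups, high values of Pearson's r arise readily, and these are descriptions without a test. The closest were Fgr for Igf1 (r = 0.9946), Avpi1 for Igf1r (r = 0.9943) and Phkg2 for Igf2r (r = 0.9764). For the abundant binding proteins they were Dusp7 for Igfbp4 (r = 0.994), Plpp3 for Igfbp5 (r = 0.9956) and Slc16a1 for Igfbp7 (r = 0.9984). For the others they were Zbtb2 for Igfbp3 (r = 0.9938), Pmm1 for Igfbp2 (r = 0.9907) and Pgrmc2 for Igfbp6 (r = 0.9817). The pattern of Igfbp7 was shared most widely, with 465 genes at an r over 0.95, followed by Igfbp5 with 212, Igf1r with 103 and Igf1 with 93, while Igf2r had 7.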

How the data were processed

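RNA-seq had been performed on 6 BMSC cultures, and the libraries were grouped by their titles into 3 control and 3 Ni replicates. The authors deposited whole-number read counts per gene for 54532 genes, without normalization, on GRCm38 per the labels. The aligner, counting tool and strand setting are not given in the sources used here. The deposited FPKM values equal those counts divided by gene length and 1 factor per library (relative deviations up to 3.29e-07). A table of gene annotation supplied symbols and positions, which matched GENCODE M21 for all 9 genes of the set.

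The quasi-likelihood test of edgeR 4.0.16 (R 4.3.3) was run with TMM normalization and robust dispersions on the 14624 genes that filterByExpr kept. P-values were adjusted by Benjamini-Hochberg over all of them, with a threshold of 0.05. Standard errors come from the coefficient and its F statistic, and intervals are at 95%. Ratios were tested by two-sided exact permutation over libraries. Overlap of the groups was read from log2 CPM (prior count 2). DESeq2 1.42.0, limma 3.58.1 on log2(FPKM + 1) and log2(FPKM + 0.1), other filters and normalization, a replicate block and leaving out each library served as alternatives. The edgeR script was tested on simulated counts. Within groups no libraries were duplicates, with chi-square per degree of freedom from 4.37 to 43.6.

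All 9 genes of the set were named. Of the other pathway genes, those with an unadjusted p under 0.05, those without counts and the 3 highest by FPKM in each list were named. For likeness, 1 gene with the highest Pearson's r was named for each gene of the set. A further pathway gene is not reported here and was left out of the list's counts. Igf2, Pappa, Stc2 and Foxo3 were named besides, after their values were seen. The genes of the set and the lists were chosen with earlier results of these data known.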

Additional observations from a re-analysis of the deposited data

How the results depend on the processing

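The direction of the log2 fold change held under all 13 alternatives for 8 of the 9 genes, but single libraries moved its size. Every alternative reused these libraries, in full or with a single one left out, so an unchanged direction was likely beforehand. For Igfbp6, counted among the 8, the direction cannot be read from its interval. Igf1 (0.21) was at 0.05 without Ni replicate 3, 0.08 without control replicate 2, and 0.36 and 0.38 without Ni replicate 2 and control replicate 3. Igfbp4 (0.17) was at 0.08 without control replicate 1 or Ni replicate 2, and at 0.27 and 0.32 without Ni replicate 3 and control replicate 3. Igfbp3 (-0.16) was at -0.06 without Ni replicate 2, -0.10 without control replicate 2 and -0.29 without Ni replicate 1. Igfbp6 (0.36) was at 0.07 and 0.18 without control replicate 1 and Ni replicate 1, and at 0.59 and 0.71 without Ni replicate 3 and control replicate 3, and Igfbp2 (0.30) at 0.19 without Ni replicate 2. Igf2r turned to 0.00132 with no filter on low counts, and lay from -0.0463 to 0.0244 when single libraries were left out. The count of genes of the set at an unadjusted p under 0.05 was 2, against 13.4% of all genes. It was 1 with limma on log2(FPKM + 1) and 1 with limma on log2(FPKM + 0.1), against 12.2% and 12.1%. When single libraries were left out it was from 1 to 4, against 5.79% to 27.4%. At an adjusted p under 0.05 the count (0) became 1 with no filter on low counts (Igfbp5, adjusted p = 0.00153, edgeR) and from 0 to 3 with each library left out. Without the filter, Igf1, Igf2r and Igfbp5 shared an SE of 0.12, so that call does not rest on the spread of Igfbp5 itself. Leaving out control replicate 3 gave the 3, namely Igf1r, Igfbp5 and Igfbp7, with adjusted calls for 2283 of all genes against 0. Genes of the set without overlap (2, against 14.7% of all genes) numbered from 2 to 5. There were 5 without control replicate 3 and 4 without Ni replicate 1, where 43.1% and 20.5% of all genes did not overlap. The other pathway genes at an unadjusted p under 0.05 (8) numbered from 5 to 15. There were 15 without control replicate 3, where 27.4% of all genes were called. There were 5 without control replicate 1 or 2 or Ni replicate 1 or 3, where 5.79% to 6.96% of all genes were called. The log2 difference in the binding protein to ligand ratio, 0.00 with all 6 libraries, was -0.10 without Igfbp7, -0.0692 in CPM and from -0.19 to 0.21 with each library left out. The cause of these shifts was not tested. Whether the replicate numbers pair the samples is not stated in the sources used here. Deviations of same-numbered libraries from their group means correlated at 0.01, 0.26 and 0.14. Libraries with different numbers were not compared, so these values cannot settle pairing. With the numbers as a replicate block, 4 genes of the set had an unadjusted p under 0.05, against 18.9% of all genes tested. At that setting 1 had an adjusted p under 0.05 (Igfbp5, log2 fold change -0.50, adjusted p = 0.0378, edgeR), against 315 of all genes. Over all genes, adjusted calls numbered 0 in edgeR, 261 in DESeq2, 1027 with no filter and 2 with limma on log2(FPKM + 1). Low counts limit Igfbp6, with 11 to 31 reads a library.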
